A study of Mus musculus with 14 samples.

Results

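The 57 odorant receptor (OR) genes numbered Olfr763 to Olfr827 form a block on mouse chromosome 10, and their RNA was read here in olfactory epithelia of pups at postnatal day 5 (P5). They were chosen by symbol alone, as every gene of both expression tables named Olfr with a plain number within those limits, and they make up 57 of 51211 gene symbols and 57 of the 1116 Olfr genes so named. Of the 65 numbers in that range, 57 were members, 7 carried only a pseudogene symbol (Olfr with the suffix -ps) and 1, number 817, had no row in either table. The study asked how the activity and the odor environment of young mice act on the olfactory system, in 2 bulk RNA-seq experiments with 14 mice at P5.

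In the Kir2.1 experiment, 3 mice that carried both the OMP-IRES-tTA allele and the tetO-Kir2.1-IRES-tauLacZ transgene (Kir2.1 mice) were compared with 3 mice heterozygous for OMP-IRES-tTA alone, so the activator allele was present in the controls too. The activator is made where Omp is active, in mature olfactory sensory neurons (OSNs), and drives the potassium channel Kir2.1, encoded by Kcnj2, which holds neurons silent. The study states that this silencing acts on vomeronasal neurons as well. The labels call the Kir2.1 group "Kir2.1-off", but these pups were taken at P5 and are called Kir2.1 mice here. In the PEA experiment, 4 wild type pups were exposed to the odor 2-phenylethylamine (PEA) from P0 to P5 and 4 wild type pups were not exposed. The labels give C57BL/6 as the background of all 14 mice, whereas the methods of the study name CD-1 pups for PEA exposure.

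ORs are G protein-coupled receptors in the cilia of OSNs, and each mature OSN transcribes a single allele of a single OR gene out of a very large repertoire. The amount of RNA of an OR gene in whole epithelium therefore follows both how many OSNs have chosen that gene and how much RNA each of them holds. In bulk tissue these cannot be told apart, and this holds for every level given here. Class II receptors, to which the block belongs, are the large tetrapod branch of the family, and Omp encodes a cytoplasmic protein that marks mature OSNs. A bound receptor acts through the olfactory G protein (Gnal), adenylyl cyclase 3 (Adcy3) and a cyclic nucleotide-gated channel.

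On GRCm38 the 57 genes lie between bases 129010791 and 130214403 of chromosome 10, a span of 1203.6 kb, with 27 genes on the plus strand and 30 on the minus strand, and the Olfr numbers follow their order along the chromosome. GENCODE vM21 lists 56 as protein coding and Olfr779 as a polymorphic pseudogene. An older naming scheme gives 56 of them a MOR family number (Olfr765 has none among the RefSeq synonyms). The 13 families include MOR114 with 13 genes, MOR110 and MOR111 with 10 each, MOR113 and MOR210 with 5 each and MOR108 with 4. The coding sequences, the longest listed for each gene, are 924 to 984 bases long, with a median of 936. Identity below is the share of identical bases among aligned and gap bases, so gaps lower it. Pairs of members in the same family were a median of 74.3% identical in coding sequence (196 pairs, 61.7% to 99.2%), and pairs from different families a median of 66.2% (1344 pairs, 52.7% to 74.0%).

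Each member's nearest relative within the block was a median of 92.7% identical, and 35 of the 57 genes had a relative above 90% identity. Reads from such genes are hard to place, so 2 close pairs are shown as 120-base stretches of coding sequence on GRCm38, read 5′ to 3′ on the coding strand, with the bases at which the pair differs in capitals. The stretch shown is the one with the most differences. Olfr772 and Olfr773, of family MOR114 and on the minus strand, differed at 7 of 933 coding bases, with 509 identical bases in a row, and 4 of the differences fall in the stretch shown (chr10:129174203-129174322 and chr10:129186603-129186722).

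Olfr772: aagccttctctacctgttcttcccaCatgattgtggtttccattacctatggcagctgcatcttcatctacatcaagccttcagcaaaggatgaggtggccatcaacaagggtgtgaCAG

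Olfr773: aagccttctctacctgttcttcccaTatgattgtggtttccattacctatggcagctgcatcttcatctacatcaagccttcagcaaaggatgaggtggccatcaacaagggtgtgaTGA

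Olfr814 and Olfr815, of family MOR113 and on the minus strand, were less alike, with 21 differences and 18 bases of gaps, of which 9 differences fall in the stretch shown (chr10:129874097-129874216 and chr10:129902050-129902169).

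Olfr814: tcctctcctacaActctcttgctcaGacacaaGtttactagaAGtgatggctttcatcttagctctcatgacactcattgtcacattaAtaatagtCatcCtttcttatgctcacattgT

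Olfr815: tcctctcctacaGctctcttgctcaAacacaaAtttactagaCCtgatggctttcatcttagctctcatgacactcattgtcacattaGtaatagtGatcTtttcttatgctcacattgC

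Over whole transcripts, 48 of the 57 genes shared more than 1% of their 40-base windows with transcripts of another gene, with a median of 8.68% and a maximum of 87.4% (Olfr779). At 150 bases, 20 genes shared more than 1% and 31 shared none. The Kir2.1 libraries were read at 40 bases and the PEA libraries at 150 bases, so the split between close relatives was less certain in the Kir2.1 table. Olfr773, with 82.4% of its 40-base windows and 52.1% of its 150-base windows in common with Olfr772 and a gene model of coding sequence alone, was listed at 0 in all 14 mice.

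The other sequences shown are the start codon (in capitals) and following coding bases of the 4 members whose groups of mice did not overlap in either experiment, described further on. They are Olfr763 (chr10:129011287-129011406, plus strand, MOR269), Olfr807 (chr10:129755329-129755448, minus strand, MOR117), Olfr809 (chr10:129775871-129775990, plus strand, MOR108) and Olfr815 (chr10:129902607-129902726, minus strand, MOR113).

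Olfr763: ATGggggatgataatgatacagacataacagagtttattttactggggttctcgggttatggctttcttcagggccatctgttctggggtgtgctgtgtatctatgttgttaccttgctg

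Olfr807: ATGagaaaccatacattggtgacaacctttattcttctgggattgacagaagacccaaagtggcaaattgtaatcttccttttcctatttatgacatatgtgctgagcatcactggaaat

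Olfr809: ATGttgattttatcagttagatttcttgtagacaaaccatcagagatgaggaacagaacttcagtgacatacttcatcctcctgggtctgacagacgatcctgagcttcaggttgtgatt

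Olfr815: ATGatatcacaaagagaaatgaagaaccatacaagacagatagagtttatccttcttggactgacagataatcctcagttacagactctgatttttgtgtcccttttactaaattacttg

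These 4 receptors come from 4 different families and are not each other's nearest relatives. The nearest member to Olfr763 was Olfr796 at 66.7% identity, to Olfr807 it was Olfr798 at 67.1%, to Olfr809 it was Olfr813 at 91.3%, and to Olfr815 it was Olfr814 at 95.9%. Olfr809 has 984 coding bases and Olfr813 has 930, so gaps lower the value of that pair.

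Values are the normalized read counts deposited by the authors, called counts below. Their sum per mouse was 33049111 to 34198478 in the Kir2.1 experiment and 11476120 to 12467331 in the PEA experiment. The most frequent lowest value in each column, taken as the worth of 1 read, was 0.959 to 1.04 and 0.808 to 1.176 counts, so the sums differ from the numbers of reads, by more in the PEA experiment. In each mouse 54 to 56 of the 57 genes were above 0. Kcnj2 stood at 985.9, 1074 and 1274 in the control mice and at 17926, 18530 and 24193 in the Kir2.1 mice as labelled. Genes for vomeronasal receptors (Vmn1r and Vmn2r, 339 genes) stood apart in some mice. Their summed count was 11186 in Kir2.1 control mouse 1 against 1413 to 1710 in the other 5 mice of that experiment, and 2810 to 9832 in PEA control mice 1 to 3 and 7176 in PEA-exposed mouse 1 against 550 to 628 in the other 4 mice. PEA control mouse 4 is among those 4 and carries the number 5 in its library name.

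In control mice the block was expressed at modest and uneven levels. The 57 genes had mean counts of 0 to 339.8 in the Kir2.1 control mice, with a median of 51.7, and 9 of them exceeded 100. In the PEA control mice the means ran from 0 to 214.4, with a median of 36.5, and 7 exceeded 100. The 5 highest genes held 28.00% and 26.4% of the summed count of the block in the 2 sets of control mice.

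Per kilobase of gene model, Olfr784 (MOR110) was highest in the Kir2.1 control mice at 79.6 counts per kb, followed by Olfr791 (MOR114) at 55.8, Olfr812 (MOR110) at 52.5, Olfr813 (MOR108) at 47.8, Olfr794 (MOR114) at 44.7 and Olfr827 (MOR210) at 40.1. In the PEA control mice the order was Olfr813 at 43.1, Olfr812 at 41.6, Olfr809 (MOR108) at 37.5, Olfr784 at 34.5, Olfr805 (MOR110) at 32.7 and Olfr821 (MOR109) at 32.2. The mice of Olfr784 (66.4 to 88.2 counts per kb) did not overlap those of Olfr791 (46.1 to 61.2) in the Kir2.1 control group. All other neighbours in these orders of 6 overlapped. Across the 51 members tested in both experiments, the 2 sets of control levels per kb correlated with Pearson's r = 0.71 (log2 values) and Spearman's rho = 0.74, as a description over genes that share libraries and gene models. Olfr784, Olfr812 and Olfr813 were thus among the 6 highest in both sets, while Olfr769 (MOR114) stood at 39.1 counts per kb in the Kir2.1 control mice and at 8.45 in the PEA control mice. The experiments differed in library type and in scaling.

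The Kir2.1 comparison asks what silencing of OSNs did to these receptors. The summed count of the 57 genes was 3513, 4151 and 3400 in the control mice and 2656, 2882 and 2144 in the Kir2.1 mice. The Kir2.1 mice were thus all under the lowest control mouse, with means of 3688 ± 405 (SD, n = 3) and 2561 ± 378 (SD, n = 3), a ratio of 0.694. Omp showed a like ratio of 0.660, from 33338 ± 2501 to 22010 ± 1319 (SD, n = 3 each, log2 fold change -0.60, limma adjusted p = 0.0466), and all Olfr genes together showed 0.739. The share of the block in the summed count of all Olfr genes was 4.62% ± 0.29 in control mice and 4.33% ± 0.38 in Kir2.1 mice (SD, n = 3 each), and the 2 groups overlapped. Per 1000 Omp counts the block stood at 111 ± 18.3 and 117 ± 22.9 (SD, n = 3 each), again with overlap.

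**Figure D1:**
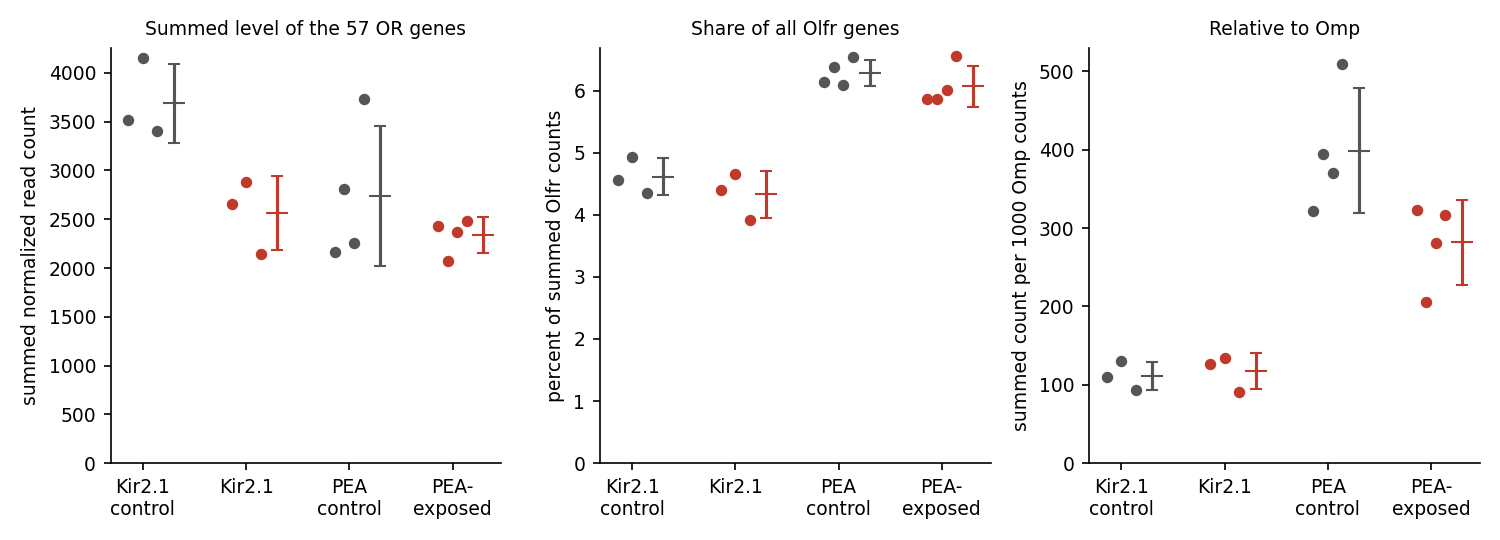
Summed level of the 57 OR genes in each mouse as normalized counts (left), as a percent of all Olfr genes (middle) and per 1000 Omp counts (right), with control mice in grey and Kir2.1 or PEA-exposed mice in red. Points are mice and bars the mean ± SD (n = 3 per Kir2.1 group, n = 4 per PEA group). The sums of the Kir2.1 mice, 2144 to 2882, lie below those of their controls, 3400 to 4151, while the shares of all Olfr genes overlap in both experiments.

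Of the 57 genes, 51 had a mean of at least 10 and were tested in the Kir2.1 experiment. Their log2 fold changes had a median of -0.67, against -0.43 over the 959 other Olfr genes tested and 0.01 over all 19807 genes tested, and 49 were below 0 and 2 above. By limma, 0 of the 51 passed an adjusted p of 0.05, a threshold that 0.353% of all genes tested passed. At the unadjusted threshold of 0.05, 17 of the 51 (33.3%) were lower and 0 were higher, where the background over all genes was 6.20% lower and 4.93% higher. Of the other Olfr genes tested, 25.4% were lower. That share was 21.4% for Olfr828 to Olfr986, 33.0% for Olfr987 to Olfr1280 and 18.5% for Olfr1417 to Olfr1505. The count of 17 depended on single mice and was 9 without control mouse 2 and 11 without Kir2.1 mouse 3. Control mouse 2 was the highest of the 6 mice for 30 of the members and Kir2.1 mouse 3 the lowest for 23.

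The 3 Kir2.1 mice all lay below the 3 control mice for 22 of the 51 tested genes (43.1%) and all above for 0, against 9.04% and 7.26% of all genes tested. The corresponding counts of lower genes were 296 of the 959 other Olfr genes, 30 of the 98 tested among Olfr828 to Olfr986 and 74 of the 188 tested among Olfr987 to Olfr1280, whose medians were -0.43 and -0.57. The Olfr1417 to Olfr1505 genes had a median of -0.36 over 54 tested. Among the 6 untested members, Olfr779 stood at 4.15, 0 and 0 in control mice and at 7.45, 5.79 and 16.7 in Kir2.1 mice, without overlap and near the worth of a few reads. Its near-copy Olfr782 went the other way, from 45.7, 78.2 and 44.3 to 40.1, 37.5 and 16.3. Olfr779 and Olfr782 summed gave 57.4 ± 18.2 and 41.3 ± 7.52 (SD, n = 3 each).

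The members with the smallest p in the Kir2.1 experiment came from several families. Olfr781 (MOR114) stood at 43.8, 49.0 and 43.5 in control mice and at 22.9, 11.2 and 9.10 in Kir2.1 mice, giving a log2 fold change of -1.69 ± 0.38 (SE, limma adjusted p = 0.164). This was the smallest adjusted p of the block. Its nearest relative Olfr799 (94.9% identity) ran in parallel, at 53.8, 57.2 and 50.1 against 28.7, 35.9 and 25.6, a log2 fold change of -0.83 ± 0.23. Olfr772, another MOR114 receptor, had the largest difference of the tested members, from 48.0, 87.2 and 76.8 to 21.97, 38.1 and 6.51, or -1.88 ± 0.60 on the log2 scale (SE, limma adjusted p = 0.302). The Kir2.1 mice themselves were spread widely for this gene.

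In family MOR111, Olfr788 and Olfr789 showed tight groups. Olfr788 stood at 53.0, 42.5 and 53.5 in control mice and at 28.7, 24.5 and 26.4 in Kir2.1 mice (log2 fold change -0.87 ± 0.23, limma adjusted p = 0.227), and Olfr789 at 47.0, 43.1 and 53.7 against 23.0, 32.0 and 23.6 (-0.86 ± 0.25). Both genes sit next to each other on the chromosome, and Olfr788 shares 1.7% of its 40-base windows with other genes. Olfr786, of the same family, stood at 52.6, 90.8 and 51.4 against 31.9, 42.5 and 20.2.

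Elsewhere in the block, Olfr763 (MOR269) stood at 27.9, 37.8 and 32.6 in control mice and at 18.0, 8.98 and 12.8 in Kir2.1 mice, giving a log2 fold change of -1.28 ± 0.35 (SE, limma adjusted p = 0.236). Olfr818 (MOR110) stood at 19.6, 39.1 and 39.3 against 9.399, 15.1 and 10.02, a log2 fold change of -1.39 ± 0.40. In family MOR113, Olfr816 had counts of 64.4, 77.2 and 46.5 against 31.6, 43.9 and 22.4, and Olfr822 had 61.0, 57.6 and 58.7 against 47.2, 25.1 and 28.5. For all 4 genes the groups did not overlap. Of the 12 tested members with the smallest p, Olfr769 (MOR114) was the most abundant, at 168.0, 213.9 and 125.4 against 101.7, 98.9 and 115.4 (log2 fold change -0.65 ± 0.22).

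The most abundant receptors did not share a single pattern. Olfr827 (MOR210), the highest of the block in total count, stood at 425.7, 249.9 and 343.7 in control mice and at 169.7, 274.7 and 150.4 in Kir2.1 mice, and the groups overlapped through Kir2.1 mouse 2 (log2 fold change -0.79 ± 0.28, limma adjusted p = 0.348). Olfr784 (MOR110), the highest per kb, stood at 275.2, 263.0 and 207.1 against 229.0, 291.8 and 271.7, a log2 fold change of 0.09 ± 0.16. Its gene model shares 42.7% of its 40-base windows with other genes (13.5% with Slc38a6) and 9.39% of its 150-base windows. The part of such reads in its level and in this value was not tested. Olfr784 and Olfr805 of the same family (0.29 ± 0.48) were the 2 tested members above 0. Olfr791 (-0.25 ± 0.27) and Olfr812 (-0.27 ± 0.28) also lay within about 1 SE of 0, whereas Olfr794 (-0.75 ± 0.33) and Olfr813 (-0.74 ± 0.30) lay near the median of the block.

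By family, the summed count of MOR110 in Kir2.1 mice was 87.1% of that in control mice, 685.3 ± 48.9 against 786.5 ± 62.4 (SD, n = 3 each). That of MOR111 was 59.0%, 197.7 ± 23.4 against 335.3 ± 29.0. MOR114 stood at 64.9%, MOR210 at 63.1%, MOR113 at 66.6% and MOR108 at 59.8%. The MOR110 sums of control mice (728.5 to 852.5) and Kir2.1 mice (651.5 to 741.3) overlapped, and those of the other families named here did not. Olfr784, with its many shared windows, alone gave means of 248.4 and 264.2 to the MOR110 sums. Within MOR110 the log2 fold changes ran from 0.29 (Olfr805) to -1.39 (Olfr818) around a median of -0.27, and the median of MOR111 was -0.86. By position, the 24 tested genes before the midpoint of the block and the 27 after it had the same median of -0.67. The 30 tested genes with at most 10% of their 40-base windows shared had a median of -0.69, and the 21 with more had -0.67.

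**Figure D2:**
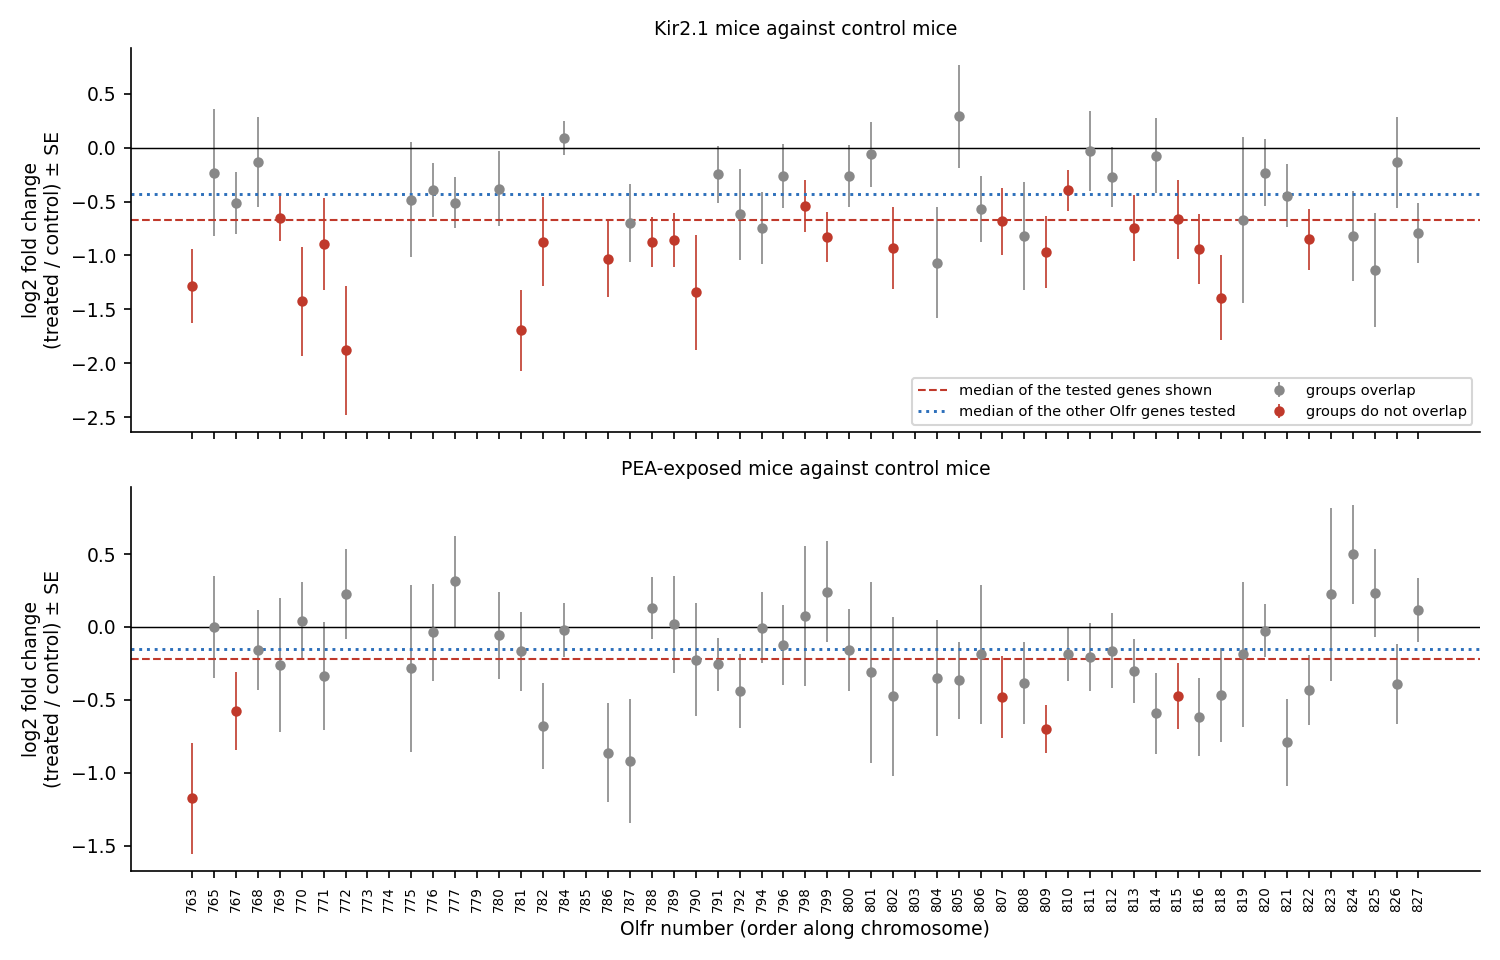
Log2 fold change ± SE of each tested OR gene in chromosome order, for Kir2.1 against control mice (top, 51 genes) and PEA-exposed against control mice (bottom, 52 genes). Genes whose groups of mice do not overlap are red, the dashed line is the median of the genes shown (-0.67 and -0.22) and the dotted line that of the other Olfr genes tested (-0.43 and -0.15). In the upper panel 49 genes lie below 0 and in the lower panel 41.

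The PEA comparison asks whether early odor exposure moved the same receptors. The summed count of the block was 2166, 2809, 2257 and 3732 in control mice and 2428, 2070, 2366 and 2482 in PEA-exposed mice. The groups overlapped, with means of 2741 ± 719 and 2337 ± 184 (SD, n = 4 each), and control mice 1 to 3 alone had a mean of 2411 ± 348 (SD, n = 3). The share of the block among all Olfr genes was 6.29% ± 0.21 in control mice and 6.07% ± 0.33 in PEA-exposed mice (SD, n = 4 each). Omp was 6817 ± 547 in control mice and 8460 ± 1146 in PEA-exposed mice (SD, n = 4 each, log2 fold change 0.31, limma adjusted p = 0.252). Every exposed mouse was above every control mouse for Omp, as for 5.46% of all genes tested, while the median over the 9 markers of mature OSNs was 0.00. Per 1000 Omp counts the block stood at 399 ± 79.4 in control mice and 282 ± 54.3 in PEA-exposed mice (SD, n = 4 each), a ratio of 0.706, and the groups overlapped.

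In this experiment 52 members were tested, with a median log2 fold change of -0.22, against -0.15 over 891 other Olfr genes and -0.02 over all 17322 genes tested. Of the 52, 41 were below 0 and 11 above. By limma, 0 passed an adjusted p of 0.05, as 0.179% of all genes did. At the unadjusted threshold of 0.05, 6 (11.5%) were lower and 0 were higher, with a background of 6.04% lower and 8.93% higher. Of the other Olfr genes, 9.99% were lower at that threshold. That share was 15.1% for Olfr828 to Olfr986, 8.42% for Olfr987 to Olfr1280 and 5.77% for Olfr1417 to Olfr1505. Their medians were -0.23, -0.10 and -0.17, so Olfr828 to Olfr986 stood at least as low as the block by both measures. The groups did not overlap for 5 members, all lower in PEA-exposed mice, and for 0 in the other direction (5.46% of all genes). The 5 were 9.62% of the 52, against 3.86% of all genes and 5.05% of the other Olfr genes.

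The values of PEA control mouse 4 weighed on this median. That mouse was the highest of all 8 mice for 33 of the members. Without it the median log2 fold change was -0.08, and 2 members in place of 6 were lower at an unadjusted p under 0.05. The summed vomeronasal receptor counts were also uneven across these mice, at 621 in control mouse 4, 2810 to 9832 in the other control mice and 550 to 7176 in the exposed mice. With the mean log2 level of those genes as a covariate, the median of the block was -0.35 and 11 members were lower at an unadjusted p under 0.05.

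The 5 members without overlap were Olfr763, Olfr767, Olfr807, Olfr809 and Olfr815. Olfr809 (MOR108) had the smallest adjusted p of the block, at 0.119 (limma). It stood at 130.2, 131.3, 97.6 and 139.5 in control mice and at 79.3, 72.3, 87.1 and 66.0 in PEA-exposed mice, a log2 fold change of -0.70 ± 0.16. Without control mouse 4 the log2 fold change was -0.64 ± 0.18. Its relative Olfr813 stood at 90.8, 80.9, 86.5 and 156.9 against 84.5, 67.1, 85.3 and 88.3 and the groups overlapped, control mouse 4 being the highest. Olfr809 shares 9.06% of its 40-base windows and 0.379% of its 150-base windows with Olfr813.

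Olfr763 (MOR269) stood at 13.4, 10.8, 25.7 and 24.6 in control mice and at 6.34, 5.67, 8.04 and 9.09 in PEA-exposed mice, a log2 fold change of -1.17 ± 0.38 (SE, limma adjusted p = 0.205). This was the largest difference of the tested members in this experiment. Olfr767 (MOR115) had tight groups, at 15.8, 16.04, 17.4 and 19.7 against 11.9, 10.5, 10.6 and 11.9, a log2 fold change of -0.58 ± 0.27. Olfr815 (MOR113) stood at 33.9, 37.7, 40.2 and 55.7 against 32.7, 28.5, 24.1 and 33.1, its lowest control and highest exposed mouse being under 1 count apart. Olfr807 (MOR117) stood at 26.3, 23.2, 22.4 and 46.4 against 21.9, 21.6, 17.7 and 19.0, also under 1 count apart.

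Other members with small p values overlapped between groups. Olfr821 (MOR109) stood at 35.3, 57.4, 56.9 and 107.5 in control mice and at 29.9, 36.7, 35.9 and 33.6 in PEA-exposed mice (log2 fold change -0.79 ± 0.30, limma adjusted p = 0.264). Olfr786 (MOR111) stood at 22.2, 24.1, 35.2 and 46.3 against 26.6, 11.1, 15.9 and 15.2, a log2 fold change of -0.86 ± 0.34. Olfr816 (-0.62 ± 0.27) and Olfr782 (-0.68 ± 0.30) were lower at an unadjusted p under 0.05 as well. In all 4 genes control mouse 4 had the highest count of the 8 mice.

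Of the 12 members with the smallest p in Kir2.1 mice, Olfr763, Olfr786, Olfr809, Olfr816 and Olfr822 were also among the 12 smallest here. All of these were below 0 in both experiments, and Olfr818 stood at -0.46 ± 0.32 here. Others that stood out in Kir2.1 mice had other values. Olfr781, with a log2 fold change of -1.69 in Kir2.1 mice, stood at -0.17 ± 0.27, and Olfr772, with -1.88, at 0.23 ± 0.31. Olfr788 stood at 0.13 ± 0.21 and Olfr799 at 0.24 ± 0.35. Olfr784 again lay near 0, at -0.02 ± 0.19, and Olfr827 stood at 0.11 ± 0.22. The difference between experiments was not tested for any gene, since mice, libraries and treatment all differ.

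By family, the log2 fold changes of all 9 tested MOR110 genes were below 0 in PEA-exposed mice, with a median of -0.31. Those of all 5 MOR113 genes were too, with a median of -0.47. Of all tested members 78.8% were below 0, and of the other Olfr genes 67.1%. Of the 5 MOR210 genes, at the distal end of the block, 4 were above 0, with a median of 0.22 and the highest value at Olfr824 (0.50 ± 0.34, limma adjusted p = 0.524). The other values above 0 lay within 1 SE of 0, among them Olfr823 (0.22 ± 0.59). Olfr823 shares 29.25% of its 150-base windows with Olfr824, so these 2 values are not fully separate. The summed count of MOR210 was 337.0 ± 94.6 in control mice and 354.0 ± 37.4 in PEA-exposed mice (SD, n = 4 each). In Kir2.1 mice the same family had a median of -0.81 over 4 tested genes, without Olfr823.

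**Figure D3:**
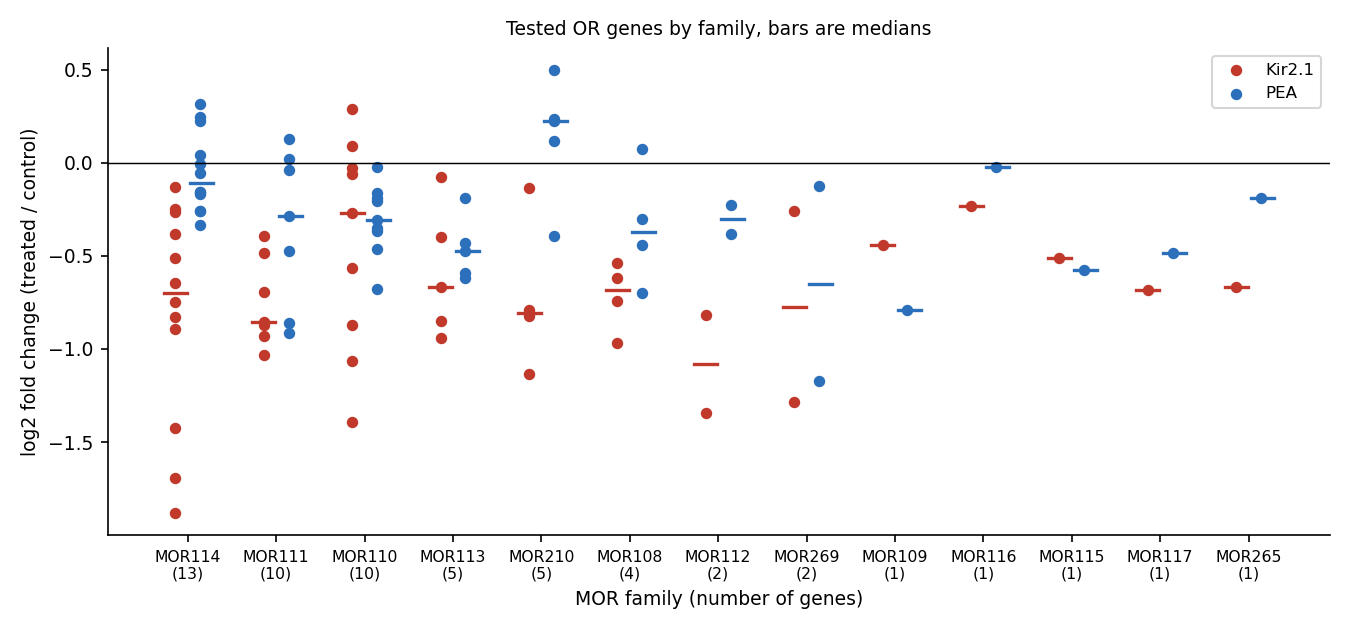
Log2 fold change of each tested OR gene by MOR family, with Kir2.1 against control in red, PEA-exposed against control in blue and bars at family medians. The number of genes in each family stands under its name. MOR111 has a median of -0.86 in Kir2.1 mice and -0.28 in PEA-exposed mice, and MOR210 a median of -0.81 and 0.22.

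The 2 experiments share no mice, so their values were set side by side. Of the 51 members tested in both, 39 were below 0 in both, 0 above 0 in both, 10 below 0 in the Kir2.1 mice alone and 2 below 0 in the PEA-exposed mice alone. Over all 16705 genes tested in both, 26.5% were below 0 in both, and over 875 other Olfr genes 55.9% were. With 49 of the 51 members below 0 in Kir2.1 mice, nearly every member below 0 in PEA-exposed mice had to be among the 39. That count thus follows from the separate counts of each experiment and is no measure of a link between them. The sizes of the differences showed almost no relation across the 51 genes (Pearson's r = 0.02, Spearman's rho = 0.08, as a description over genes).

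**Figure D4:**
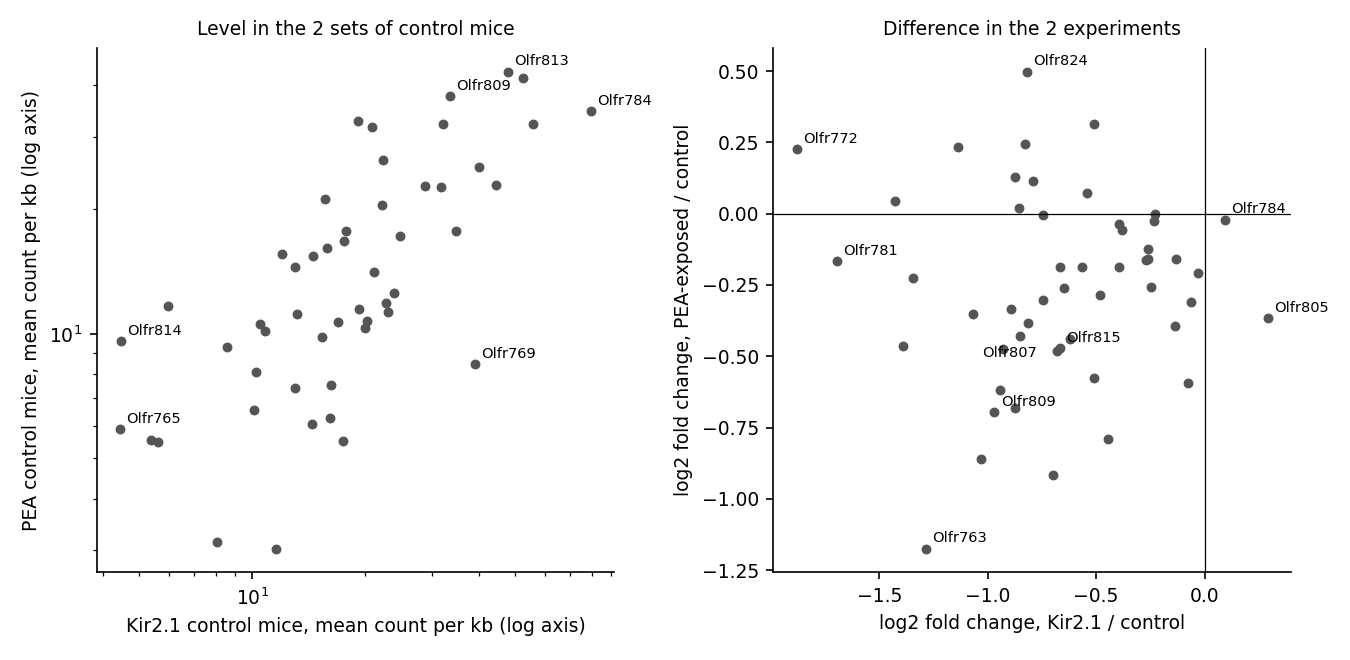
Each point is an OR gene of the block tested in both experiments (51 genes). On the left, the mean level per kb in the PEA control mice is plotted against that in the Kir2.1 control mice on log axes (Pearson's r = 0.71). On the right, the log2 fold change in PEA-exposed mice is plotted against that in Kir2.1 mice (r = 0.02), and 39 genes lie below 0 on both axes.

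The treated mice lay below all control mice in both experiments for Olfr763, Olfr807, Olfr809 and Olfr815, whose first coding bases are printed above. That is 4 of 51 members, where 0.485% of all genes tested in both and 8 of the 875 other Olfr genes did so. Taken alone, 43.1% of the tested members did so in the Kir2.1 and 9.62% in the PEA experiment, against 9.04% and 3.86% of all genes. These higher shares by themselves make genes in common more frequent, and a link between the experiments was not tested. In Kir2.1 mice Olfr809 stood at 84.4, 34.8 and 58.8 against 88.6, 127.1 and 118.7 in control mice, a log2 fold change of -0.97 ± 0.33. Olfr815 stood at 31.6, 13.4 and 28.7 against 33.1, 37.1 and 41.9, and Olfr807 at 14.96, 18.4 and 16.7 against 20.7, 33.6 and 29.1. The margin was narrow for Olfr809 (84.4 against 88.6) and for Olfr815 (31.6 against 33.1).

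Near-copies bear on 3 of these 4 receptors. Olfr763 shares 38.2% of its 40-base windows with Olfr9, a receptor gene outside the block, which stood at 32.2 ± 6.04 in control and 21.6 ± 3.33 in Kir2.1 mice (SD, n = 3 each) and at 17.9 ± 3.50 and 14.9 ± 5.59 in the PEA experiment (SD, n = 4 each). Olfr763 and Olfr9 summed gave 58.5 to 70.5 in control and 28.8 to 43.3 in Kir2.1 mice, without overlap. For the PEA mice the sum gave 24.3 to 46.0 in control and 17.4 to 28.1 in PEA-exposed mice, with overlap. Olfr814 and Olfr815 summed gave 46.5 to 60.2 against 31.4 to 50.3 in the Kir2.1 experiment, with overlap, and 60.4 to 99.5 against 50.3 to 56.8 in the PEA experiment, without. Olfr809 and Olfr813 summed did not overlap in either, at 200.8 to 263.5 against 102.9 to 180.6 and at 184.1 to 296.4 against 139.4 to 172.3. Olfr807 shares no 40-base window with any other gene.

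**Figure D5:**
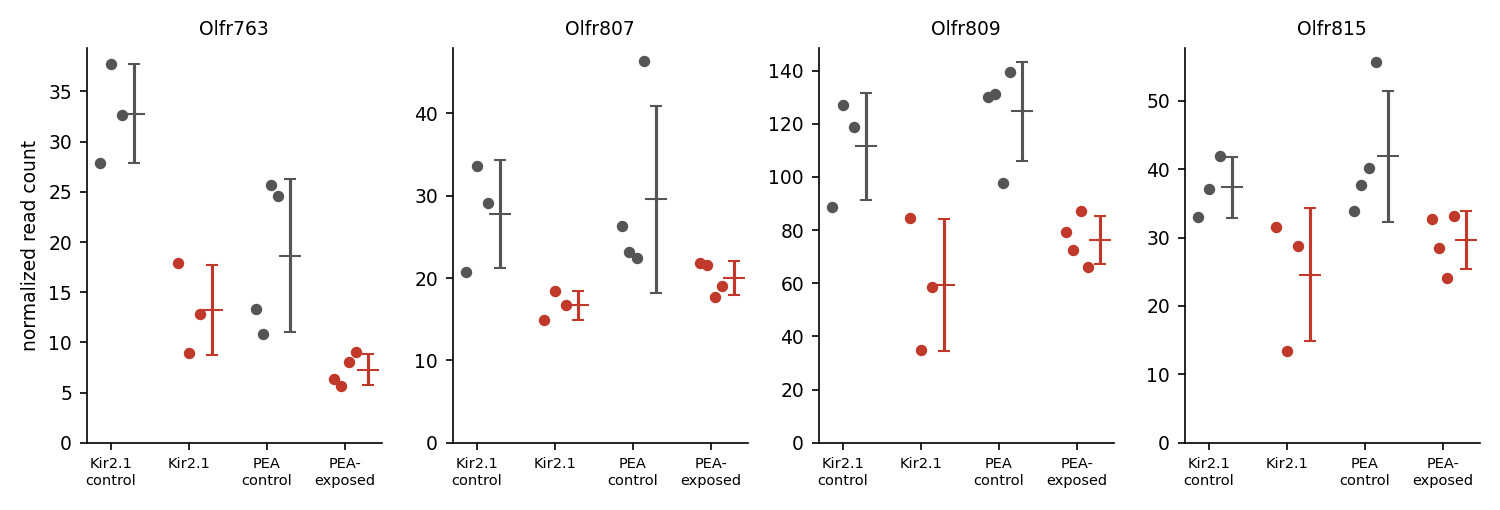
Normalized read counts of Olfr763, Olfr807, Olfr809 and Olfr815 in each mouse, with control mice in grey and Kir2.1 or PEA-exposed mice in red. Points are mice and bars the mean ± SD (n = 3 per Kir2.1 group, n = 4 per PEA group). Each red group lies below its own grey group, by under 1 count for Olfr807 and Olfr815 in the PEA experiment.

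Genes that act around the receptors give the setting of these values. Of 19 genes for OR choice and OR transport, 0 passed an adjusted p of 0.05 in Kir2.1 mice and 4 were lower at an unadjusted p under 0.05, with a median log2 fold change of -0.12. The smallest p values belonged to the receptor transporters Rtp2 (-0.45 ± 0.07, limma adjusted p = 0.0531) and Rtp1 (-0.38 ± 0.07, adjusted p = 0.0846) and to Ric8b (-0.31 ± 0.09, adjusted p = 0.258), which acts on the olfactory G protein. Among the PEA mice 0 of the 19 passed (3 lower and 3 higher by unadjusted p), and the smallest p values belonged to the stress-response factor Ddit3 (0.47 ± 0.14), the heterochromatin protein Cbx5 (-0.29 ± 0.09) and the histone methyltransferase Ehmt2 (0.42 ± 0.14).

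Of 12 transduction genes, 12 were below 0 in Kir2.1 mice with a median of -0.38, and 10 were lower at an unadjusted p under 0.05. Pde1c, a phosphodiesterase that breaks down cyclic nucleotides, fell by 0.65 on the log2 scale (limma adjusted p = 0.0223), and Adcy3 (-0.54 ± 0.09, adjusted p = 0.0720) and Gng13 (-0.37 ± 0.07, adjusted p = 0.102) followed. Among the PEA mice 0 passed (1 lower and 0 higher by unadjusted p) and 5 of 12 were below 0, with Gnal at -0.37 ± 0.11 (limma adjusted p = 0.165), Cnga2 at -0.18 ± 0.08 and Adcy3 at 0.20 ± 0.13.

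Markers of cell types differed between groups in places. Over 9 markers of mature OSNs the summed count was 129752 to 144092 in control and 95310 to 107789 in Kir2.1 mice, and all 9 were lower at an unadjusted p under 0.05. The 5 markers of immature neurons had a median log2 fold change of 0.02, the 4 of globose basal cells -0.17, the 3 of horizontal basal cells 0.34, the 4 of sustentacular cells -0.13, the 3 of respiratory epithelium 0.42 and the 3 of macrophages and leukocytes 0.41. Both blood markers, Hba-a1 and Hbb-bs, were higher at an unadjusted p under 0.05, with summed counts of 5762 to 10339 in control and 11035 to 16847 in Kir2.1 mice. The part of these cells in the levels of the block was not tested. For the PEA mice the same medians were 0.00 for mature OSNs, 0.16 for immature neurons, -0.12 for globose basal cells, 0.62 for horizontal basal cells, 0.09 for sustentacular cells, 0.14 for respiratory epithelium, 0.15 for blood and 0.10 for macrophages and leukocytes. Of the vomeronasal list (340 genes with Trpc2), 93 genes in the Kir2.1 and 120 in the PEA experiment had a mean of at least 10. A gene can pass that minimum through the mice with high sums alone, so no median is given for the list. Its summed count was 1696 to 11714 in control and 1620 to 1697 in Kir2.1 mice (control mouse 1 being the highest), and 644 to 9894 in control and 577 to 7231 in PEA-exposed mice. Trpc2 alone stood at 527.5, 376.1 and 282.6 in control and at 225.0, 145.1 and 152.0 in Kir2.1 mice. Those groups did not overlap, as for the 9.04% of all genes tested that were lower. The part of silenced vomeronasal neurons in these values was not tested. The fits with the mean log2 level of the vomeronasal receptors as a covariate gave medians of -0.73 and -0.35 for the block. In the Kir2.1 experiment that level was 3.76 in control mouse 1 and 1.02 to 1.10 in the others. The covariate there mainly marked 1 mouse, and leaving that mouse out also gave -0.73. In the PEA experiment the level was uneven between the groups, so its part cannot be fully told apart from exposure.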

How the data were processed

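RNA was measured in whole olfactory epithelium of 14 mice. Kir2.1 libraries came from poly-A RNA, without strand, as 40-base reads. PEA libraries came from RNA depleted of ribosomal RNA, with strand, as 150-base reads. Per the methods and the submitters' processing notes, the authors estimated counts with Salmon 1.3.0 on Ensembl release 100 (a reverse-stranded setting was named for all samples), added them up by gene (tximport) and scaled samples with DESeq2 1.30.0. The deposited values are thus a normalized signal per gene. Low values were within 0.1 of a whole number of reads for 28.5% to 68.8% of genes per mouse, so reads were not recovered and no count test was run.

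Each experiment was fitted alone. To genes with a mean of at least 10, 1 was added and log2 taken, and limma 3.58.1 (R 4.3.3, mean-variance trend) was run over all of them with Benjamini-Hochberg adjustment at 0.05, after a test on simulated data. Fold changes are on the log2(count + 1) scale and understate low genes. The p-values set each group difference against the spread between these mice, with variances moderated over all genes tested. Each mouse was taken as independent. Litter and cage were not modelled, and the study gave the odor in the home cage. Gene models and coding sequences came from GENCODE vM21 (GRCm38), which held 96.0% of the symbols. Members, lists and tests were chosen with earlier results of these data known. Named were members past the threshold, the 12 with the smallest p and the 6 highest per kb in each experiment, those without overlap in both and those listed at 0 throughout. Olfr779, Olfr796, Olfr798, Olfr801, Olfr802, Olfr819, Olfr823 and Olfr824 were named after their values were seen. Alternatives were 2 pseudocounts, 2 filters, no variance trend, 2 scalings, a threshold of 0.10, a replicate block, a vomeronasal covariate and leaving out each mouse. Python 3.11.15, numpy 2.4.6, pandas 2.3.3 and matplotlib 3.10.9 were used for the rest. The sequence of a further pair is not reported here.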

Additional observations from a re-analysis of the deposited data

Results flagged for a closer look

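In groups of 4 mice, a value was marked where its gap to the nearest other mouse was larger, as a share of the range of its group, than Dixon's critical value. The 64 groups checked did not take in every tested member. Of these groups 4 were marked, a share near the 1 in 20 that chance marks, so their number is no finding about these genes. All 4 were PEA control mouse 4 standing above the other 3 control mice. Olfr787 (MOR111) was at 124.7 there against 29.9 to 39.9. Olfr794 (MOR114) was at 103.5 against 56.97 to 60.4. Olfr807 (MOR117) was at 46.4 against 22.4 to 26.3. Olfr813 (MOR108) was at 156.9 against 80.9 to 90.8. The same mouse had the largest sum of all Olfr genes of the 8, 57075 against 35240 to 44041 in the other control mice.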

How the results depend on the processing

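By limma 0 members passed an adjusted p of 0.05 in either experiment under any alternative run, nor did any pass 0.10 in the fit reported. The smallest adjusted p was 0.127 to 0.439 in the Kir2.1 experiment and 0.0975 to 0.246 in the PEA experiment. With a minimum mean of 50 the Kir2.1 median was -0.44 and 4 members were lower at an unadjusted p under 0.05, and in the PEA experiment 1 was, over fewer members tested. In the PEA experiment that count was 10 with each mouse centred on its median and 11 with the vomeronasal covariate. Leaving out each mouse in turn gave counts of 9 to 16 (Kir2.1) and 2 to 10 (PEA) and medians of -0.73 to -0.54 and -0.33 to -0.08. With the replicate block 20 and 6 members were lower at an unadjusted p under 0.05 and none was called. Deviations of same-numbered mice correlated at -0.06 to 0.16 (Kir2.1) and -0.05 to 0.13 (PEA), and no label ties them, so the numbers were not taken to pair mice. Signs turned for genes near 0 (the cause was not tested). With each Kir2.1 experiment mouse left out in turn, Olfr784 was -0.034 to 0.19, Olfr791 -0.48 to 0.0092, Olfr805 -0.12 to 0.68 and Olfr814 -0.23 to 0.12 (0.023 without control mouse 2). With each PEA experiment mouse left out, Olfr769 was -0.57 to 0.21, Olfr784 -0.099 to 0.13, Olfr789 -0.20 to 0.33, Olfr794 -0.11 to 0.20, Olfr812 -0.30 to 0.071 and Olfr827 -0.11 to 0.29. For PEA, Olfr789 was -0.031 with median centring, -0.0041 with quantile scaling and -0.26 with the covariate. The other values of named members, 383 in the Kir2.1 and 426 in the PEA experiment, kept their sign and their side of the threshold. With 3 or 4 mice a group, differences of a low gene within the spread between mice could not be detected at this depth.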

Other observations

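Some members differed more between mice of the same group than between groups, and are named here after their values were seen. Olfr801 (MOR110) stood at 23.7, 104.0, 24.1 and 80.2 in PEA control mice and at 21.1, 60.5, 17.4 and 88.2 in PEA-exposed mice, so that low and high values occurred in both groups, while the 6 mice of the Kir2.1 experiment ranged from 58.05 to 110.2. Olfr802 (MOR111), its neighbour on the chromosome, stood at 49.7, 15.2, 34.1 and 22.6 in PEA control mice and at 7.63, 29.6, 13.5 and 46.5 in PEA-exposed mice. Olfr819 (MOR265) stood at 5.54 in Kir2.1 mouse 3 against 36.0 to 51.0 in the other 5 mice.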
